A study of Arabidopsis thaliana with 3 samples.

Results

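Distal regions on the chromosome arms were the matched AtSDR4L ChIP-seq regions whose summit lay over 1000 bp from every nuclear protein-coding gene and outside the pericentromeres. They numbered 289 of the 1784 regions in the authors' deposited table of matched regions, which lists intervals with a peak in both induced replicates. Members were chosen by position alone, with no limit on reproducibility. Pericentromeres were set at 12.5 to 17.5 Mb on chromosome 1, 2 to 6 Mb on chromosome 2, 11 to 17 Mb on chromosome 3, 2 to 5.5 Mb on chromosome 4 and 9.5 to 14.5 Mb on chromosome 5. No interval was duplicated.

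AtSDR4L is a transcriptional regulator of Arabidopsis thaliana, related to the rice seed dormancy protein SDR4. The induced group held 2 biological replicates of whole AtSDR4L-HA seedlings, grown for 4 days on 1 µM β-estradiol, which switches on the HA-tagged protein. The uninduced group was 1 anti-HA ChIP from seedlings of the same inducible line, grown for 4 days without β-estradiol. All 3 samples thus carry the transgene, and the labels used here name neither its promoter nor the ecotype. No value of the control library by itself is in the files used here. A test of induced against uninduced samples could therefore not be made, and with 1 control among 3 samples an exact permutation p could not go below 0.333.

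Genes are tightly packed on the arms of the Arabidopsis genome, so most known regulatory sequence lies close to a gene start. Some plant enhancers and silencers nevertheless act from several kilobases away, often in the wide gaps that surround developmental and hormone genes. Pericentromeres are rich in transposons and silent chromatin, which is why distal positions on the arms are described apart from them. A region far from all genes cannot be given to a target by position, and genes are named here only as neighbours.

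The distal arm regions with the highest enrichment by mean fold lay next to MAPKKK15, AP2, BOI, FLP1, BRG1, GATA13, U1-70K, SMZ and EMB269, and next to 2 genes listed by locus only, AT3G58090 and AT5G61997. Fold enrichment is the authors' value at a peak's summit over the 1 uninduced control. The irreproducible discovery rate (IDR) of the authors' table is low where a region ranks high in both replicates and alike. A weak region can have a high IDR although its folds are nearly equal. Coordinates are 1-based on TAIR10. Of the 12 regions with the lowest IDR and the 12 with the highest mean fold, 9 were the same.

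The region next to MAPKKK15, a MAP kinase kinase kinase gene of a clade linked to abscisic acid, lay at chromosome 5: 22359181-22359692. Its fold was 5.93 in replicate 1 and 4.25 in replicate 2, a mean of 5.09 ± 1.18 (SD, n = 2), at an IDR of 0.000669. This was the highest mean fold of all 289, and the summit lay 1011 bp from the gene, close to the limit of the rule.

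A neighbour of BRG1 had the lowest IDR of the members, 0.000276, at chromosome 5: 18215518-18216140. BRG1 encodes a RING protein of the BOI family, which acts with DELLA proteins to hold gibberellin responses down. The fold was 4.76 in replicate 1 and 3.46 in replicate 2, with the summit 2787 bp from the gene. BOI itself, listed under the symbol RING, had a region 1329 bp away at chromosome 4: 10715562-10716288. There the replicates stood further apart, with 5.70 for replicate 1 against 2.83 for replicate 2 (IDR 0.00748).

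AP2, a floral homeotic gene and founder of the AP2/ERF family, had a pair of members in the gap towards LEJ2. The nearer, at chromosome 4: 17398379-17399159, had folds of 5.38 in replicate 1 and 3.32 in replicate 2. The farther, at chromosome 4: 17397384-17398099 and 2819 bp from AP2, had 4.12 in replicate 1 and 3.18 in replicate 2. Their IDR was 0.00091 and 0.00126. SMZ, an AP2-like repressor of flowering, had folds of 4.55 in replicate 1 and 3.32 in replicate 2 in its region at chromosome 3: 20378708-20379209. The summit lay almost midway between SMZ (2456 bp) and TON1A (2482 bp).

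Replicate 1 stood above replicate 2 in 11 of the 12 members of lowest IDR. GA20OX3, which encodes a gibberellin biosynthesis oxidase, had close values of 3.89 in replicate 1 and 3.67 in replicate 2 at chromosome 5: 2241417-2241994. FLP1, a gene of the FPF1 family, had 4.80 in replicate 1 and 3.50 in replicate 2 at chromosome 4: 15231171-15231647. The exception was the region at chromosome 3: 21510235-21510704 between GIS, a zinc finger gene of trichome development, and AT3G58090. It had 4.22 in replicate 1 and 4.66 in replicate 2. The region next to AT5G61997, at chromosome 5: 24906029-24907083, had 4.34 in replicate 1 and 3.88 in replicate 2.

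Members with a low IDR were not all strongly enriched. A region 1095 bp from WRKY22, a WRKY transcription factor gene of defence signalling, had the fourth lowest IDR at 0.00114. Its folds were 3.07 in replicate 1 and 2.11 in replicate 2. It spanned 333 bp at chromosome 4: 525175-525507.

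**Figure D1:**
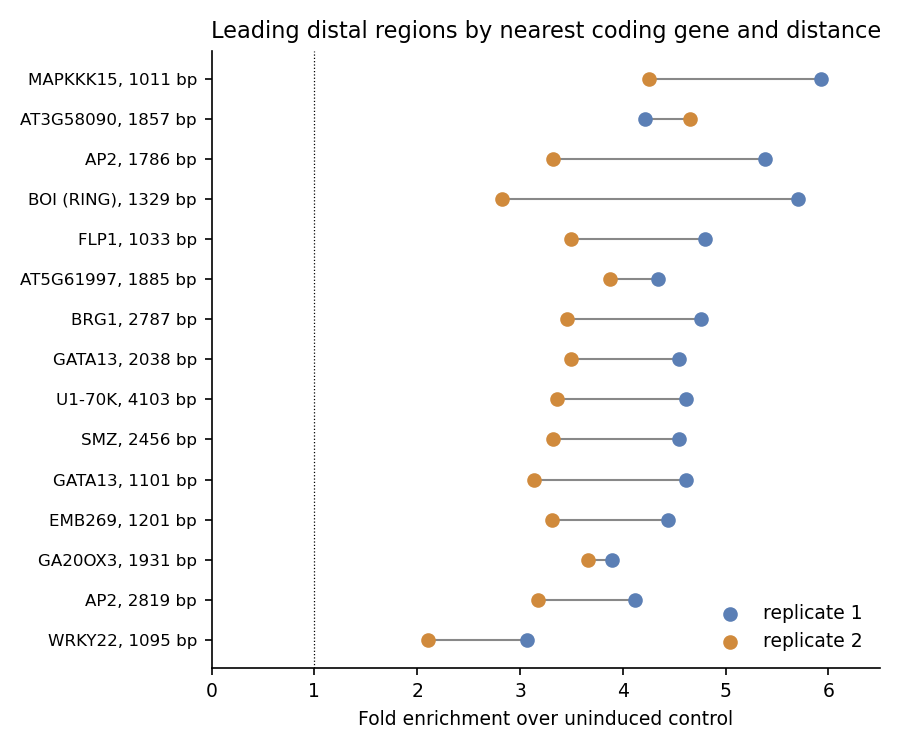
Fold enrichment over the uninduced control (x axis) of the 15 distal regions with the lowest IDR or the highest mean fold, each labelled with its nearest coding gene and the distance to it. Points are the replicates, joined by a line, and the dotted line marks a fold of 1. Replicate 1 lies to the right in all but the region next to AT3G58090.

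Over all 289 members the median fold was 2.64 in replicate 1 (range 1.35 to 5.93) and 2.02 in replicate 2 (1.36 to 4.66). Over the other 1487 nuclear matched regions it was 1.88 in replicate 1 and 1.70 in replicate 2. The medians of regions between genes and within 1000 bp of one were 2.09 and 1.80, those of regions inside genes 1.72 and 1.61, and those of distal pericentromeric regions 1.99 and 1.77, replicate 1 before replicate 2. Regions had to be called in both lists to be members, so these medians leave out everything below that limit.

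Reproducible regions, taken as those with an IDR of at most 0.05, made up 62 of the 289 distal arm regions (21.5%, exact 95% interval 16.9 to 26.6). The background over all 1784 matched regions was 10.2%. The share was 21.7% (10.9 to 36.4) of 46 distal pericentromeric regions, 11.5% (9.27 to 13.97) of 750 regions within 1000 bp of a gene and 3.47% (2.24 to 5.12) of 691 regions inside genes. At an IDR of at most 0.01 the count was 24 of 289 (8.30%), against 3.70% of all matched regions. At an IDR of at most 0.1 it was 102 (35.3%), against 16.9%. The intervals treat regions as independent, which neighbouring regions are not, and no test of the difference was run. The IDR also depends on peak strength. For distal arm regions the median −log10 q was 18.997 in replicate 1 and 8.30 in replicate 2. For the other nuclear matched regions it was 7.14 and 4.62. By class, medians and shares were as follows. Distal pericentromeric regions had medians of 11.6 and 7.28 at a share of 21.7%, near that of distal arm regions but resting on 10 regions. Regions within 1000 bp of a gene had 10.7 and 5.70 at a share of 11.5%. Regions inside genes had the lowest medians and the lowest share. The part of strength in the shares was not tested. Both replicates share 1 control, and what that control contributes was not tested.

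A fold of at least 2 in both replicates was reached by 130 distal arm regions (45.0%), against 22.0% of all matched regions. It was reached by 23.9% of distal pericentromeric regions, 24.8% of regions within 1000 bp of a gene and 9.41% of regions inside genes. A fold of at least 3 in both was reached by 24 of the 289 distal arm regions, against 53 of all 1784 matched regions (2.97%). It was reached by 0 of 46 distal pericentromeric regions, 24 of 750 within 1000 bp of a gene and 5 of 691 inside genes. At the other end, 46 members (15.9%) shared the highest IDR in the table, 0.649, as did 40.0% of the other nuclear matched regions. By class this was 19.6% of distal pericentromeric regions, 30.0% of regions within 1000 bp of a gene and 52.2% of regions inside genes.

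**Figure D2:**
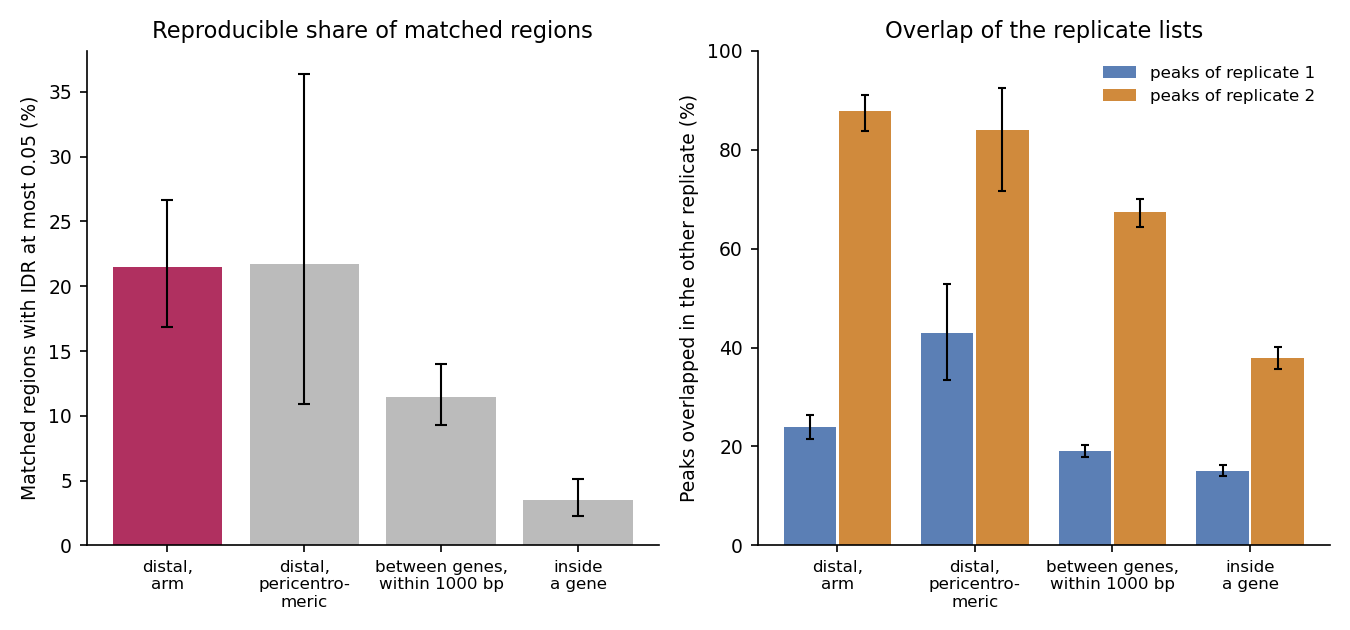
Left, share of matched regions with an IDR of at most 0.05 by position of the summit. Right, share of each replicate's own peaks overlapped by at least 1 bp in the other replicate's list. Bars are percentages and lines exact 95% binomial intervals over regions or peaks. Distal arm regions stand at 21.5% on the left, and at 23.9% and 87.8% on the right.

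Peaks of the single replicate lists were also counted by position, with an overlap of at least 1 bp. The overlapped peaks are not the same set as the members, although their number in replicate 1 is equal. Their median fold in replicate 1 was 2.83, against 2.64 for the members. Replicate 2 had 336 distal arm peaks, of which 295 (87.8%, exact 95% interval 83.8 to 91.1) were overlapped by a replicate 1 peak, against 53.0% of all its nuclear peaks. Among its other peaks 83.9% (71.7 to 92.4) of distal pericentromeric ones were overlapped. The share was 67.3% (64.4 to 70.1) within 1000 bp of a gene and 37.8% (35.7 to 40.0) inside genes. Replicate 1 had 1211 distal arm peaks, of which 289 (23.9%, 21.5 to 26.4) were overlapped, against 18.2% of all its nuclear peaks. In this list the share was higher for the 107 distal pericentromeric peaks, at 42.99% (33.5 to 52.9). It was lower within 1000 bp of a gene, at 18.995%, and inside genes, at 15.1%. Distal arm peaks made up 9.82% of the list of replicate 2 and 12.3% of that of replicate 1.

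Peaks found in 1 list only had lower median folds. In replicate 1 the distal arm peaks without a partner had a median fold of 2.08 and reached 5.09, against a median of 2.83 for those with one. In replicate 2 those without a partner had a median of 1.78 and none was above 2.89.

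The summits of both replicates lay close together in distal arm regions. Their median offset was 36 bp, and 57.1% were within 50 bp. Over the other nuclear matched regions the median offset was 75 bp and 41.6% were within 50 bp. Distal arm regions were also narrower, with a median width of 570 bp against 633 bp, and 73.4% held a single summit in each list against 62.3%. Distal pericentromeric regions shared these traits, with a median offset of 26.5 bp and 67.4% within 50 bp. Their median width was 449 bp, and 76.1% held a single summit in each list. Among reproducible regions distal arm ones were not narrower than the other nuclear matched regions, with a median width of 571.5 bp against 549 bp. The part of width in the offset was not tested.

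**Figure D3:**
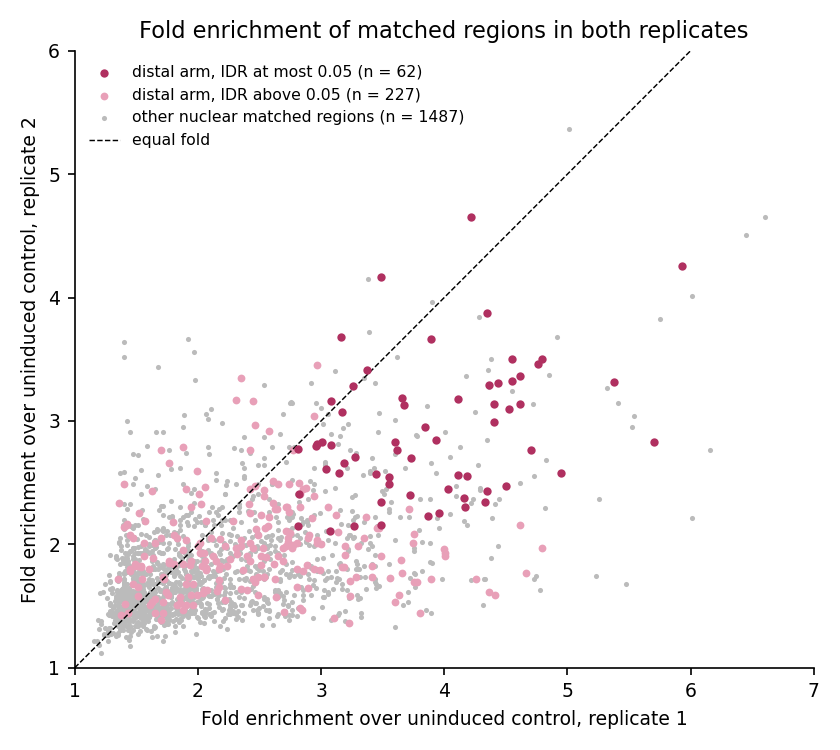
Fold enrichment in replicate 1 (x axis) and replicate 2 (y axis) of all nuclear matched regions, with distal arm regions in dark (IDR at most 0.05) and light (IDR above 0.05) colour and all others in grey. Most distal arm points (223 of 289) lie below the dashed line of equal fold.

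The fold was higher in replicate 1 in 223 of the 289 members (77.2%), and in 65.0% of the other nuclear matched regions. Distal pericentromeric regions were near the members, at 76.1%, while the share was 69.5% within 1000 bp of a gene and 59.5% inside genes. Ranked across the 289 members, the folds of replicate 1 and replicate 2 correlated at 0.43 (Spearman), and on the log2 scale at 0.47 (Pearson). Over the other nuclear matched regions the values were 0.47 and 0.51. By class they were 0.59 and 0.55 for distal pericentromeric regions, 0.44 and 0.49 within 1000 bp of a gene, and 0.40 and 0.46 inside genes. These are correlations across regions that share libraries and control, not across samples.

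Some members were strong in 1 replicate only. The 5 with the largest ratio of replicate 1 to replicate 2 were next to GSTU9, AT3G21320, RR3, AT3G28922 and ZIP3, with ratios of 2.77 down to 2.48 and IDR values of 0.394 to 0.448. RR3, a type-A response regulator gene of cytokinin signalling, had 4.66 in replicate 1 and 1.77 in replicate 2. ZIP3, a zinc transporter gene, had 4.25 in replicate 1 and 1.72 in replicate 2. The 5 with the smallest ratio, 0.563 to 0.658, were next to LIG6, LBD39, IDL3, AT2G47440 and AT1G18700. LBD39, a nitrate-responsive regulator gene, had 1.36 in replicate 1 and 2.33 in replicate 2.

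Within the members, enrichment did not follow the distance from genes. The distance ran from 1007 to 6374 bp with a median of 1707 bp, and its Spearman correlation with the mean fold was -0.01 over 289 regions. The reproducible share was 22.5% at 1000 to 1500 bp (27 of 120), 16.1% at 1500 to 2000 bp (9 of 56), 21.7% at 2000 to 3000 bp (15 of 69) and 25.0% beyond (11 of 44). Each lay within the exact 95% intervals of the other 3. Just inside the limit, the regions next to DIS2 (1007 bp), MAPKKK15 (1011 bp) and TRM13 (1014 bp) had folds in replicate 1 of 2.83, 5.93 and 2.47. Just outside it, those next to RPT2 (999 bp), GAI (998 bp) and SHV3 (998 bp) had 3.96, 2.65 and 3.16. GAI encodes a DELLA repressor of gibberellin responses, and its region had a fold of 2.18 in replicate 2.

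**Figure D4:**
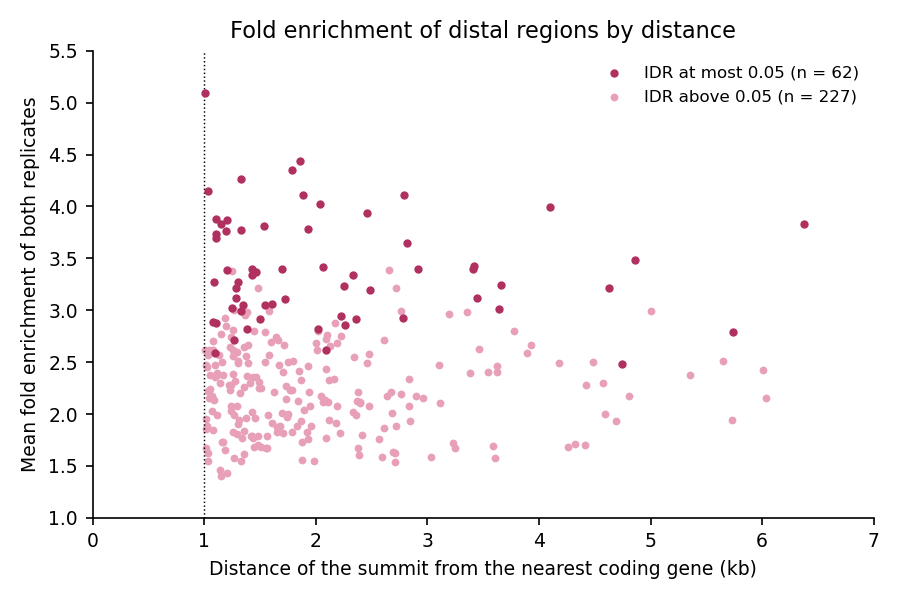
Mean fold enrichment of both replicates (y axis) against the distance of the summit from the nearest coding gene in kb (x axis) for the 289 distal arm regions, dark where the IDR is at most 0.05. The dotted line is the limit of the rule. High and low folds occur at all distances up to 6374 bp.

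The member farthest from any coding gene was strongly enriched. It lay 6374 bp from NCED3, whose product catalyses the rate-limiting step of drought-induced abscisic acid synthesis, and 9150 bp from CID9 on the other side. At chromosome 3: 4839983-4840589 its fold was 4.37 in replicate 1 and 3.29 in replicate 2 (IDR 0.00665). The next 4 by distance were nearest to AT1G29660, AT3G26539, SAHH2 and RAV1, with mean folds of 1.94 to 2.79. Of these the region near SAHH2, a gene of the methylation cycle, had nearly equal folds of 2.81 in replicate 1 and 2.78 in replicate 2 (IDR 0.0298).

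The widest members were among the weakest. The 5 widest, of 2021 to 3201 bp, were next to BRG3, SIP3, LIG6, MGP2 and CHIA, with mean folds of 1.40 to 1.95, and all had the highest IDR in the table. Across members the Spearman correlation of width with mean fold was -0.16.

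Distal arm sequence made up 13.4 Mb, or 11.3% of the length between the first and last coding genes of the chromosomes, and held 16.3% of the nuclear matched regions. It held 34.1% of the 182 reproducible ones. That is 21.5 matched regions per Mb, against 30.9 per Mb between genes within 1000 bp of one, 10.7 inside genes and 2.72 in distal pericentromeric sequence. For reproducible regions the densities were 4.62 per Mb on distal arms, 3.54 within 1000 bp of a gene, 0.372 inside genes and 0.591 in distal pericentromeric sequence. Between chromosomes the density of members ran from 16.4 per Mb on chromosome 1 and 16.8 on chromosome 4 to 27.7 on chromosome 5 and 27.9 on chromosome 3. Chromosome 5 had 76 members, of which 21 were reproducible. How much of each kind of sequence the reads could map to uniquely is not given in the sources used here, and its part in these densities was not tested.

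Members were spread over many gaps. They occupied 267 of 5468 arm gaps of over 2000 bp between coding genes, of which 247 held 1 member, 19 held a pair and 1 held 4. The median gap length, taken over the 289 members, was 5837 bp. A matched region inside or within 1000 bp was found for 52 of the 278 distinct nearest genes (18.7%), against 8.22% of the 9266 coding genes that border such gaps. The remaining nearest genes had a distal region without a matched one close by.

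The gap that held 4 members separated GATA13, a GATA-type zinc finger gene, from ARF10, an auxin response factor gene. Starting at GATA13, the folds were 4.62 in replicate 1 and 3.14 in replicate 2 at 1101 bp, then 4.55 and 3.50 at 2038 bp. Further on they were 2.73 and 2.05 at 3381 bp, and 2.07 and 2.19 at 5259 bp, which is 2368 bp from ARF10. The pair near GATA13 was reproducible (IDR 0.00629 and 0.00415), and the pair towards ARF10 was not (0.122 and 0.205).

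BRG1 had members on both of its sides. Besides the region of lowest IDR, one lay 4748 bp away on the same side, with 2.81 in replicate 1 and 2.15 in replicate 2 (IDR 0.0181). The third lay on the other side, towards the salicylic acid receptor gene NPR3, with 3.48 in replicate 1 and 2.16 in replicate 2 (IDR 0.0357). All 3 passed the IDR limit. Around DWF4, a brassinosteroid biosynthesis gene, 3 members fell within 12.2 kb. The one towards U1-70K, a spliceosome gene, had 4.62 in replicate 1 and 3.36 in replicate 2, at chromosome 3: 18821795-18822285. It lay 4652 bp from DWF4 and 4103 bp from U1-70K, while its neighbour nearer to DWF4 had 1.72 in each replicate. The third, towards AT3G50650, had 2.31 in replicate 1 and 3.17 in replicate 2. Runs of members less than 20 kb apart were also found at OFP15 on chromosome 2 (3 members) and from AT3G22961 to IAA2 on chromosome 3 (4 members). Only the region next to LFR among these 7 passed the IDR limit, at 0.0416.

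**Figure D5:**
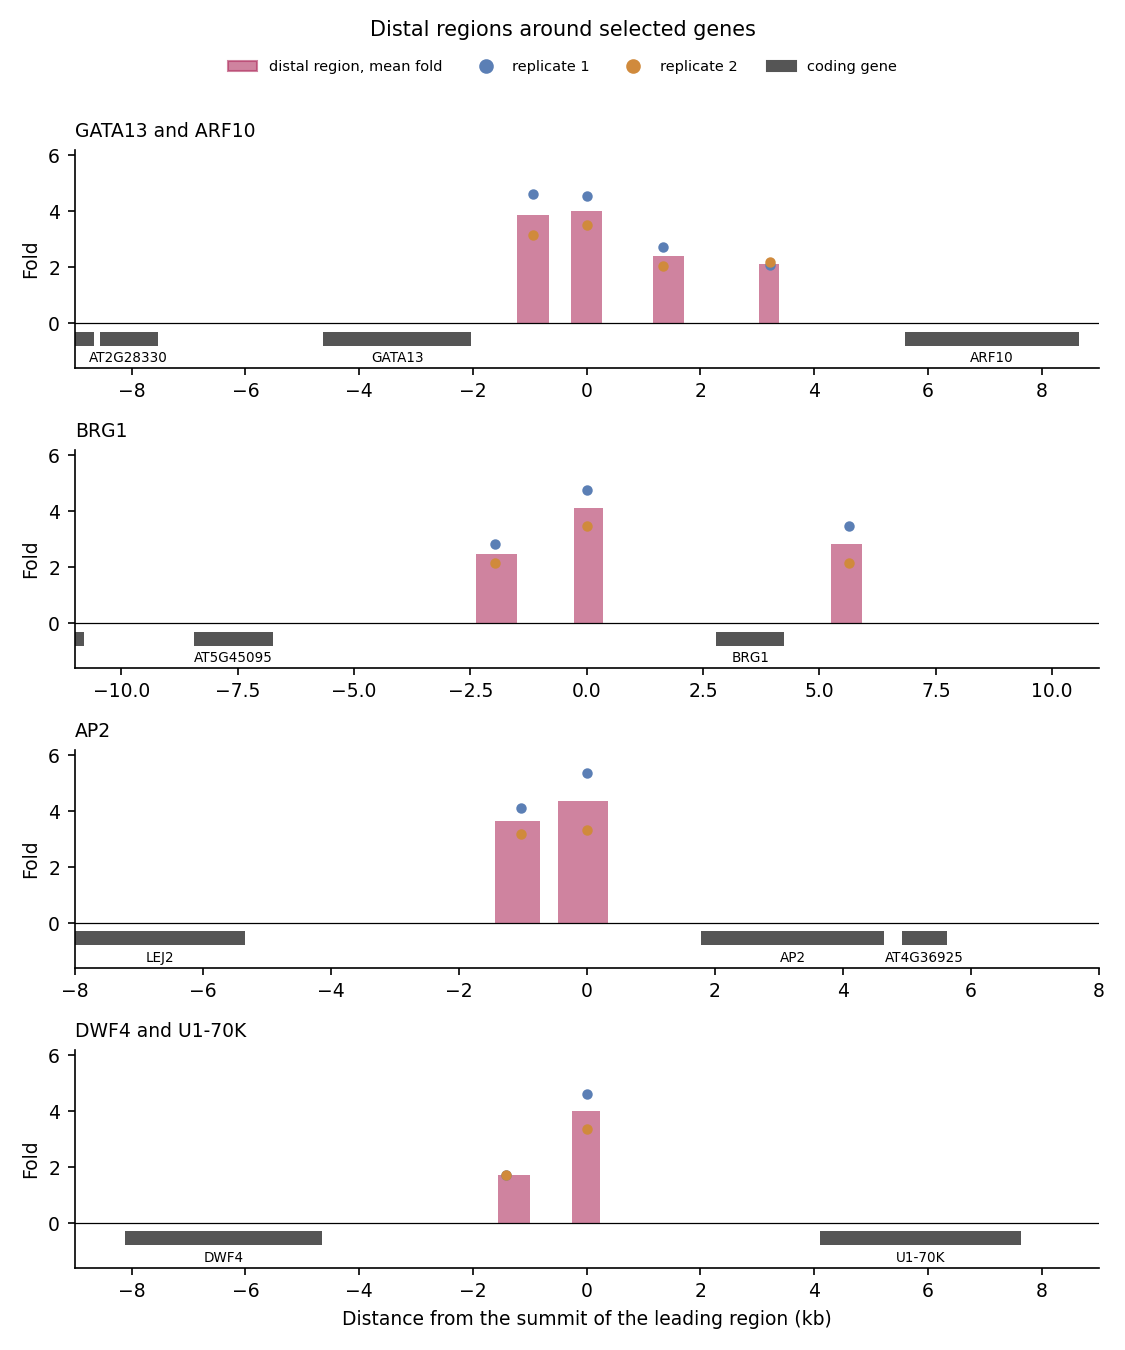
Matched regions around GATA13 and ARF10, BRG1, AP2, and DWF4 and U1-70K. The x axis is the distance in kb from the summit of the leading region and the y axis the fold enrichment, with bars for the mean of both replicates over the width of the region, points for the replicates and grey boxes for coding genes. All regions drawn are distal arm regions, 4 of them in the gap of GATA13.

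Genes next to the members were grouped by lists of gene names. At least 1 of 23 lists held the nearest gene of 72 members (24.9%), which were 66 distinct genes. Of the coding genes that border wide arm gaps, those of over 2000 bp, 11.4% are in a list. These genes count once each, whatever the length of the gap. Members lay in gaps with a median length of 5837 bp, and the part of gap length in the shares was not tested. The lists hold only genes whose symbol or synonym fits a name pattern, so family members with other names are missed. Each share of members is set beside the share of the same list among the genes that border wide arm gaps, here called bordering genes. Of all 1776 nuclear matched regions, members included, 294 had a nearest gene in a list. By list this was 17 for gibberellin, 10 abscisic acid, 46 light and clock, 31 auxin and 20 cytokinin. It was 26 for homeobox, 5 AP2/ERF, 16 WRKY, 17 zinc finger, 8 NAC, 8 MYB, 10 bZIP, 5 TCP and 4 bHLH. It was 22 for nutrient transport, 17 calcium and touch and 20 receptor-like kinases. Ethylene had 0, jasmonate 4, MADS 4, GRAS 7, SPL 3 and HSF 1. Some lists had a smaller share among members than among all nuclear matched regions. These were light and clock, cytokinin, calcium and touch, receptor-like kinases, NAC and bZIP, and, apart from ethylene, the lists with 0 members.

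Gibberellin genes were the nearest genes of 7 members (2.42%), of which 5 were reproducible, and they make up 0.302% of the genes that border such gaps. Besides BOI, GA20OX3 and BRG1 with its 3 regions, they were RGA1 and BRG3. RGA1, a DELLA gene, had 2.53 in replicate 1 and 1.97 in replicate 2 (IDR 0.0995). BRG3 had 1.90 in replicate 1 and 1.68 in replicate 2. The list thus rests on 5 genes, of which 3 are relatives in the BOI family.

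Abscisic acid genes were nearest to 4 members (1.38%, against 0.442% of bordering genes), of which those of MAPKKK15 and NCED3 were reproducible. HAI1, a protein phosphatase 2C gene that restrains the pathway, had 2.74 in replicate 1 and 2.26 in replicate 2 (IDR 0.093). MAPKKK20 had 2.35 in replicate 1 and 1.99 in replicate 2. Light and clock genes were nearest to 4 members (1.38%, against 0.507% of bordering genes), and to 46 of the 1776 nuclear matched regions. Their share was thus smaller among members than among all nuclear matched regions. With all coding genes within 5 kb of the summit counted, the number of members was 8. Of the 4, 1 was reproducible. It was next to PIF7, a bHLH gene of shade responses, with 3.60 in replicate 1 and 2.83 in replicate 2. RVE1, a clock-linked MYB gene, had 3.24 in replicate 1 and 1.70 in replicate 2, PRR5, a clock repressor gene, had 2.06 and 2.46, and GLK1 (listed as GPRI1), which drives chloroplast development, had 2.53 and 2.44.

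Among transcription factor families, homeobox genes were nearest to 11 members (3.81%, against 0.712% of the genes that border wide gaps), but only 1 was reproducible. BLH1, of the BELL class, had 3.55 in replicate 1 and 2.54 in replicate 2 (IDR 0.0149). KNAT3, of the KNOX class, had a pair of regions with IDR values of 0.052 and 0.0517, and HAT1 had 0.0509, all just above the limit. The others included the HD-Zip genes HAT1, HB4 and HB-2, which act in shade and auxin responses, with mean folds of 2.41 to 2.57. The AP2/ERF list had 4 members (1.38%, against 0.464% of bordering genes), 3 of them the reproducible AP2 and SMZ regions already given. The fourth was next to ANT, a regulator of organ growth, with 2.96 in replicate 1 and 2.01 in replicate 2.

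WRKY genes were nearest to 4 members (1.38%, against 0.529% of bordering genes), of which WRKY61 (4.34 in replicate 1 and 2.43 in replicate 2) and WRKY22 were reproducible. Zinc finger and GATA genes were nearest to 8 (2.77%, against 0.626%), and the reproducible ones were both at GATA13. The NAC list had 1 member (0.346%, against 0.637% of bordering genes) and the MYB list 2 (0.692%, against 1.07%). The bZIP list had 1 (0.346%, against 0.291%) and the TCP list 2 (0.692%, against 0.151%). None of these was reproducible. Genes named by a bHLH number were nearest to 1 member, not reproducible (0.346%, against 0.183%), but this pattern misses bHLH genes with names of their own, such as PIF7, whose region was reproducible. In the same way RVE1 is not in the MYB list. The MADS (0.529% of bordering genes), GRAS (0.130%), SPL (0.0971%) and HSF (0.0755%) lists had 0 members. With all coding genes within 5 kb counted, the numbers were 4 for NAC, 6 for MYB, 3 for bZIP and 2 for MADS.

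Auxin genes were nearest to 10 members (3.46%, against 1.38% of the genes that border wide gaps), and only that of PID2, a kinase gene related to PINOID, was reproducible. It had 3.85 in replicate 1 and 2.95 in replicate 2. The others were next to 3 IAA genes, 2 ARF genes, 2 GH3 genes, LBD39 and a SAUR gene, with mean folds of 1.63 to 2.70. The nutrient transport list, which holds nitrate, metal and sugar transporters and aquaporins among others, was nearest to 8 members (2.77%, against 1.11% of bordering genes), 3 of them reproducible. It does not hold every transporter: OPT9, KUP6, CLC-B and BOR1, noticed after the values were seen, were nearest genes of members outside it, and the region of OPT9 was reproducible (3.01 in replicate 1 and 2.83 in replicate 2). NRT2.2, a high-affinity nitrate transporter gene, had 4.16 in replicate 1 and 2.38 in replicate 2 (IDR 0.0135). Its tandem relative NRT2.1, listed as NRT2:1, had 4.79 and 1.97 (IDR 0.147). The aquaporin genes PIP2A (3.72 and 2.40) and PIP2B (3.55 and 2.49) were the other reproducible ones. NRT1.1, a nitrate transporter and sensor gene, had 3.45 in replicate 1 and 2.14 in replicate 2. NRT2.1 and NRT2.2 are tandem copies, and how reads were placed between related sequences was not tested.

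The cytokinin list was nearest to 2 members (0.692%, against 0.594% of bordering genes), those of RR3 and of PRR5, a clock gene already counted above that its pattern takes in by a synonym. With the nearest gene taken from the edges of the region, the number was 1. Calcium and touch genes were nearest to 2 (0.692%, against 0.496%). Neither list had a reproducible member. XTH7, a cell wall enzyme gene of the touch list, had 4.62 in replicate 1 and 2.16 in replicate 2. Receptor-like kinase genes were nearest to 2 members, 1 of them reproducible, a share near the background (0.692%, against 0.658% of bordering genes). Within 5 kb the number was 4. Ethylene genes (0.216% of bordering genes) and jasmonate genes (0.183%) were nearest to 0 members, and within 5 kb ethylene genes had 1.

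Some reproducible members had a regulatory gene on the far side of the gap, which the nearest-gene rule passes over. These were picked after their values were seen. The region between CLASP and PIL5 (PIF1), a bHLH repressor of light-dependent germination, lay 3377 bp from PIL5, with 4.94 in replicate 1 and 2.58 in replicate 2. The region between PIP5K1 and LEC1, a master regulator of embryo development, lay 2751 bp from LEC1, with 3.15 in replicate 1 and 2.58 in replicate 2 (IDR 0.0467). One between AT5G11330 and the auxin biosynthesis gene YUC4 had 3.48 in replicate 1 and 4.17 in replicate 2. One between ATE1 and the brassinosteroid biosynthesis gene CPD had 3.26 and 3.28. Regions of the same kind lay between EMB269 and PUCHI, a factor of lateral organ formation (4.44 and 3.31), and between AT1G24265 and the floral gene SEP3 (3.37 and 3.42).

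Noncoding genes lay within 1000 bp of 49 of the 289 members (17.0%), near the 17.1% of the other nuclear matched regions. The share was 34.8% of distal pericentromeric regions, 19.2% of regions within 1000 bp of a coding gene and 13.6% of regions inside genes. By length, 40.3% of distal arm sequence is within 1000 bp of a noncoding gene. The reproducible share was 22.4% (exact 95% interval 11.8 to 36.6) of those 49 and 21.2% (16.3 to 27.0) of the other 240. Long noncoding RNA genes made up most of them, with 38 members, and 19 summits (6.57%) fell inside such a gene, which cover 2.11% of the distal arm length. Of the 19, 7 were reproducible, among them those inside AT1G08673 (3.44 in replicate 1 and 2.57 in replicate 2) and AT1G05863, which is the region between AT1G24265 and SEP3. The files and gene table hold no strand, so a promoter could not be told from a transcript body.

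MicroRNA genes were close to only a few members, none of them reproducible. Within 1000 bp lay MIR404 (593 bp, folds of 2.99 in replicate 1 and 1.79 in replicate 2), MIR163 (404 bp, 1.40 and 2.49) and MIR414 (546 bp, 1.35 and 1.72). Farther off, and picked after their values were seen, were MIR159b, MIR167a and MIR169b, of families that target MYB, ARF and NF-Y genes. MIR167a had a region 1784 bp away with 2.73 in replicate 1 and 2.02 in replicate 2 (IDR 0.0696). TAS3, whose small RNAs silence auxin response factor genes, had a region 199 bp away with 3.65 in replicate 1 and 1.87 in replicate 2 (IDR 0.204). Annotated tRNA, rRNA and snRNA genes were near 0 members.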

How the data were processed

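The series' design text states that the authors called peaks from adapter-trimmed paired-end reads with MACS2 2.2.7.1, induced samples against the control. The submitters' processing notes also name TAIR10, Bowtie2 2.3.5.1, SAMtools 1.7 and bcl2fastq 2.20. The sources used here do not give duplicate handling, mapping filters or the IDR settings. The deposited peak lists hold a fold ratio over the control at each summit, −log10 p and q values and a score. The deposited table of matched regions holds a score and −log10 IDR. Read depth is unknown, so no counting error is given for a fold.

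From these, summits were set at the table's start plus its offset, and each region's folds were taken from the overlapping peak with the same q within 0.001. List rows sharing 1 interval, which differ by summit, were counted as 1 peak (12865 rows for replicate 1 and 4502 for replicate 2). Of the 1784 matched regions 1776 were nuclear. Gene spans and names came from RefSeq TAIR10.1 (27444 nuclear coding genes, no strand or exons), used for neighbours and distances only, with no coordinates printed. List names matched symbols or synonyms by pattern. Shares have exact binomial intervals. Distances and classes were tested on simulated positions (100 of 100 recovered). Scripts ran under Python 3.11.15 and used scipy 1.17.1, with pandas 2.3.3, numpy 2.4.6 and, for plots, matplotlib 3.10.9.

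The members, lists and rules for naming were chosen with earlier results of these data known. Named were the 12 members of lowest IDR and the 12 of highest mean fold, the 5 at each end of the replicate ratio, the 5 farthest and 5 widest, those at the distance limit, clusters of at least 3 within 20 kb, members near noncoding genes and up to 4 members per list by mean fold. RGA1, HB4, HB-2 and NRT1.1 fall outside this rule and were picked after their values were seen, as were the far-side genes. A pattern that took PIP5K1 for an aquaporin was corrected after the data were seen. The planned motif and base composition description was not run, since no genome sequence was used here.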

Additional observations from a re-analysis of the deposited data

How the results depend on the processing

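No paired analysis was possible because the control is 1 sample and shares no replicate series with the induced pair. The 289 members became 473 with a distance of over 500 bp from coding genes and 113 with over 2000 bp, by construction, while the reproducible share and the median folds moved within their intervals or the spread of the replicates. With a −log10 q of at least 5 in both replicates 183 members remained, of which 33.9% were reproducible. With at least 10 it was 110 and 56.4%, with median folds of 3.13 in replicate 1 and 2.53 in replicate 2, fewer weak regions being kept. The share was 8.30% at an IDR of at most 0.01 and 35.3% at 0.1. With a reciprocal overlap of 50%, 16.9% of the distal arm peaks of replicate 1 and 60.7% of those of replicate 2 were matched. Leaving out 1 replicate gave 336 to 1211 distal arm peaks, with medians of 2.03 in the list of replicate 2 and 2.22 in that of replicate 1. Counting noncoding genes as genes, interval midpoints as summits, pericentromeres wider by 1 Mb, leaving out regions within 10 kb of rRNA genes and, added after seeing the data, 1 region per gap moved no value beyond these limits. Under other ways of assigning genes to regions, 8 list counts moved by over 1.5 times, all in lists with 4 or fewer members, and 38 did not. The planned motif and base composition results were not run.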
